A study of Mus musculus with 35 samples.

Results

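The semaphorin, plexin, ephrin and related axon guidance genes of the mouse hippocampus were examined after IAKA, in which kainic acid (KA), an agonist of glutamate receptors, is injected into the amygdala and triggers status epilepticus. The rule that chose them works on gene symbols and takes all semaphorins of classes 3 to 7, plexins, neuropilins, ephrins, Eph receptors, Slits, Robo receptors, netrins, and the netrin receptors Dcc and Unc5a to Unc5d listed in the count tables. It found 68 of 32544 genes, namely 20 semaphorins, 9 plexins, 2 neuropilins, 8 ephrins, 14 Eph receptors, 3 Slits, 4 Robo receptors, 3 netrins and 5 netrin receptors. Each of the 68 had at least 1 count in some library.

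Guidance cues steer growing axons by attraction or repulsion and persist in the adult brain, where many act at synapses. Secreted class 3 semaphorins bind neuropilins, which signal through plexins, whereas most other semaphorins bind plexins directly. Ephrins are anchored in the membrane of one cell and bind Eph receptor tyrosine kinases on another, Slits bind Robo receptors, and netrins bind Dcc and the Unc5 receptors. In the hippocampus these systems are known for guiding mossy fibers and other afferents into their layers, and for shaping dendritic spines.

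The animals were adult male C57BL/6JOlaHsd mice that had received KA or phosphate-buffered saline (PBS) into the amygdala and were killed 24 hours or 2 weeks later. KA mice were given the benzodiazepine lorazepam after the injection. Hippocampal RNA was sequenced from each mouse as total RNA (input), as RNA immunoprecipitated with an antibody against N6-methyladenosine (m6A), or as both. The m6A libraries came from 5 KA and 3 PBS mice at 24 hours and from 6 KA and 5 PBS mice at 2 weeks, and the input libraries with 100000 counts or more came from 3 KA mice and 1 PBS mouse at 24 hours and from 6 KA and 3 PBS mice at 2 weeks.

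Levels are given as TMM-scaled CPM, that is, read counts scaled to a common library total after a correction for library composition made within each assay. A level in an m6A library is the amount of a transcript in the pulldown. It is not divided by the input level and is not a measure of methylation alone. Total counts ran from 1652933 to 34564536 in the 19 m6A libraries and from 3057578 to 12694434 in the 13 input libraries used, and 3 input libraries with 3171, 4621 and 34486 counts were left out. For 27 of the 35 libraries the assay was inferred from how the data columns are named. The column names also divide the libraries into sets: prefix 3 (KA mice only), 4 or 5 for m6A, and no prefix or the prefix Input for input. Among the libraries used, the set with the prefix Input also held KA mice only. The libraries of KA mouse 8 at 24 hours stood apart in both assays, with Spearman correlations with the median library of 0.861 in m6A and 0.880 in input, against at least 0.927 in all other libraries used. The dentate granule cell marker Prox1 lay at 23.4 CPM or more in every library used, and 9 of 9 markers of hippocampal neurons were detected in each group. The tissue is a mixture of cells, so that fewer cells of a type and less RNA per cell cannot be told apart.

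In none of the 7 comparisons made did a guidance gene reach an adjusted p under 0.05 by the quasi-likelihood test of edgeR. That test called at most 0.00607% of all genes in any comparison involving KA. Between pulldown and input in PBS mice it called 0.317% and 0.714% in the 2 directions. Limma voom did call guidance genes in m6A at 24 hours and in both input comparisons, as given below. Without passing in edgeR, the Slit receptor Robo1 lay below every PBS library in all m6A libraries of KA mice at both time points. Several further receptors lay below at 24 hours. Of all genes tested, 1.82% lay wholly below at 24 hours and 0.167% at 2 weeks. In input RNA at 2 weeks 44 of 60 guidance genes lay above 0, with a median log2 fold change above that over all genes. The semaphorin receptor Nrp2 had the smallest p there. In m6A at 2 weeks the direction of the group depended on how the library sets were treated.

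The m6A pulldown selects RNA by an antibody, and the consensus around m6A most often quoted contains the letters GGACT in DNA code. The canonical Robo1 transcript of GENCODE vM39 is 9217 bases long and holds GGACT 9 times, 5 of them in the coding sequence (positions 1251 to 6086). These 5 are shown with 8 bases on each side because the levels of Robo1 in the m6A libraries did not overlap between groups at either time. With edgeR over all libraries, Robo1 did not pass the adjusted p at either time. The capitals mark the 5 letters, and the libraries do not show whether any of them carries m6A.
Robo1-site-3: ccatcaaaGGACTcaaaccta
Robo1-site-4: tggaaatgGGACTgcaatcct
Robo1-site-5: agagaaacGGACTcaccagca
Robo1-site-6: ggaggccgGGACTcctcaaca
Robo1-site-7: ggcgccggGGACTccagcgag
They start at positions 3000, 3505, 3912, 4020 and 4409 of the transcript. Over the 68 guidance genes the median was 1.29 GGACT per kb of canonical transcript and 7 per transcript, against 1.04 per kb and 4 per transcript over 13284 genes tested that have such a transcript.

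The first question was where these genes stand in PBS mice. In the input of the 3 PBS mice at 2 weeks, Eph receptors led the list when levels were divided by the length of the canonical transcript. Epha5 stood at 57.9 ± 5.40 CPM per kb (SD, n = 3), with its lowest library at 52.6. Epha6 followed at 34.8 ± 3.04, with a range of 32.8 to 38.3, and Epha4 at 27.6 ± 5.28, with a range of 21.6 to 31.6. Nrp1, a receptor for class 3 semaphorins, stood at 20.7 ± 2.17 and Epha7 at 17.5 ± 2.15. The ranges of Epha5, Epha6 and Epha4 did not overlap, whereas those of Nrp1 (18.3 to 22.4) and Epha7 (16.0 to 19.9) did.

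**Figure D1:**
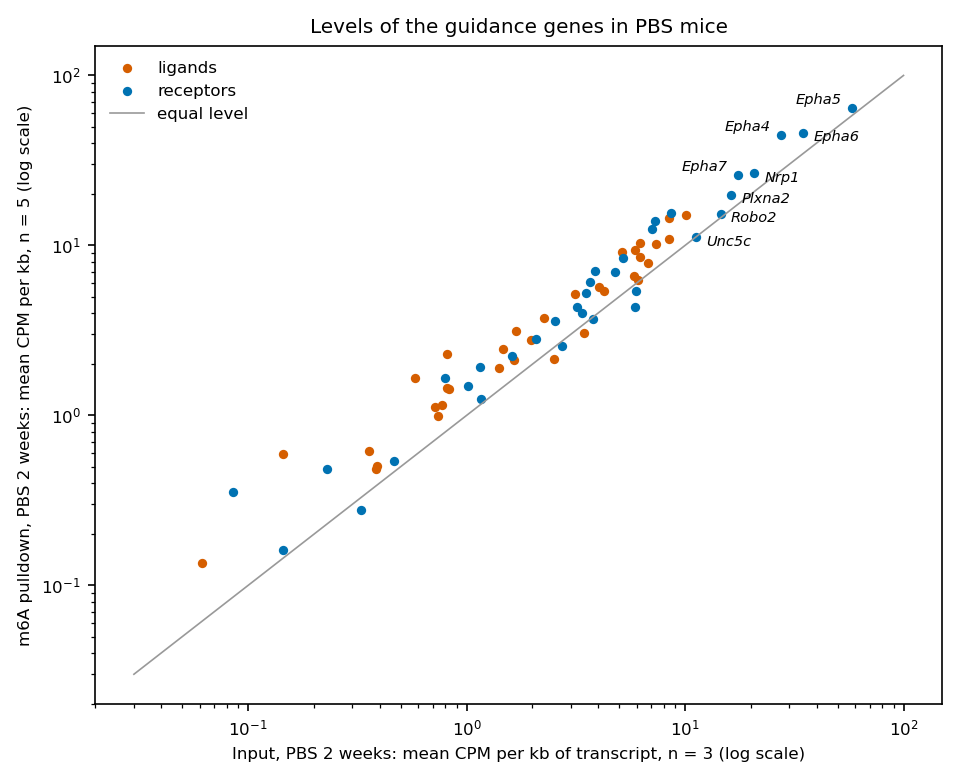
Mean level of each of the 68 guidance genes in PBS mice at 2 weeks, in CPM per kb of canonical transcript, in input (x axis, n = 3) and m6A pulldown (y axis, n = 5), both on log scales and scaled within each assay. Orange points are ligands, blue points are receptors, and the line marks equal levels; Epha5 has the highest level in both assays, at 57.9 and 64.5.

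The pulldown was compared with input in PBS mice at 2 weeks to see how the antibody treated these transcripts without KA. No guidance gene of 64 tested passed an adjusted p of 0.05 with an absolute log2 fold change above 1 in edgeR, whereas 0.317% of all genes passed in the direction of the pulldown and 0.714% in the direction of input. At an unadjusted p of 0.05, 2 lay higher in the pulldown and 1 lower, against 9.59% and 7.28% of all 15128 genes. Robo1 was among the higher, with a log2 ratio of 0.58 ± 0.22 (SE; edgeR adjusted p = 0.239), and Unc5d, a netrin receptor, was the lower, at -0.69 ± 0.27 (edgeR adjusted p = 0.239). The third was Sema3e, a secreted semaphorin that binds plexin D1, at 0.53. Of the 64, 49 had a log2 ratio above 0, with a median of 0.24 against 0.07 over all genes. With the mouse as a replicate block, a fit that also leaves out the m6A libraries of PBS mice 50 and 78, 25 of 60 lay above 0 and the median was -0.07. The block and the libraries left out were not separated. In that fit Robo1 stood at 0.63, Unc5d at -0.39 and Sema3e at 0.33. The assay and the library set cannot be told apart here. Across the 64 genes, Spearman's rho of the log2 ratio was 0.13 with GGACT per kb and -0.33 with transcript length, against 0.07 and 0.03 over all genes. These are descriptions across genes that share the same 8 libraries.

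The effect of KA on the m6A-bound RNA was taken up first at 24 hours. Of 67 guidance genes tested, 0 passed the adjusted p in edgeR, against 0.00607% of 16470 genes (1 gene). At an unadjusted p of 0.05, 4 lay lower in KA mice and 1 higher, where 1.29% of all genes lay lower and 4.02% higher. All KA libraries lay below all PBS libraries for 4 guidance genes and above for 2, against 1.82% and 2.81% of all genes. The median log2 fold change was -0.06, against 0.08 over all genes, and 31 of 67 lay above 0.

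Robo1 encodes the receptor through which Slits repel axons. Its levels in the m6A libraries were 72.7, 73.2, 75.1, 75.6 and 78.9 CPM in the KA mice and 104, 115 and 123 in the PBS mice. The KA libraries spanned a narrow band that lay wholly below the PBS libraries. The log2 fold change was -0.59 ± 0.21 (SE; edgeR adjusted p = 0.677). Within set 4, which holds 2 KA and 2 PBS mice, the log2 fold change was -0.71 ± 0.14 (edgeR adjusted p = 0.0537).

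Epha4, an Eph receptor that restrains axons and spines, had 155, 173, 190, 203 and 224 CPM in the KA mice and 293, 295 and 297 in the PBS mice. The groups did not overlap, and the 3 PBS libraries were nearly equal. Its log2 fold change was -0.63 ± 0.22 (edgeR adjusted p = 0.722).

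Dcc, the netrin receptor that mediates attraction, had 19.0, 22.5, 23.7, 24.2 and 28.5 CPM in the KA mice and 35.4, 36.0 and 36.3 in the PBS mice. These groups did not overlap either. The log2 fold change was -0.61 ± 0.22 (edgeR adjusted p = 0.759).

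Efnb3, a transmembrane ephrin of midline and hippocampal circuits, had the smallest p of the guidance genes at 24 hours. Its levels were 11.8, 18.4, 20.8, 21.1 and 24.0 CPM in the KA mice and 23.3, 42.2 and 42.7 in the PBS mice. One KA library exceeded the lowest PBS library, that of PBS mouse 1, which is the only PBS library of set 5 at this time. The log2 fold change was -0.90 ± 0.30 (edgeR adjusted p = 0.635), and it was -0.93 ± 0.16 within set 4 (edgeR adjusted p = 0.0379).

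**Figure D2:**
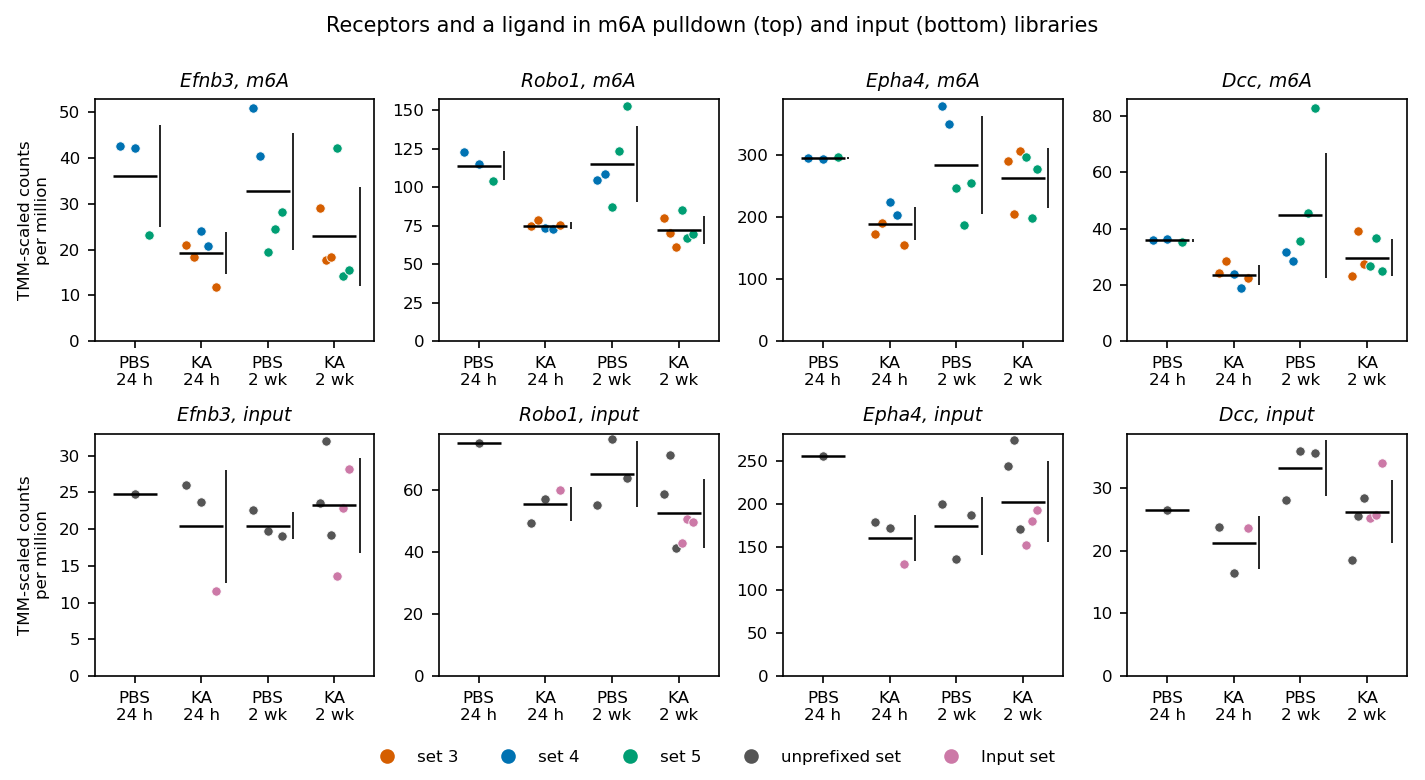
Levels of Efnb3, Robo1, Epha4 and Dcc in TMM-scaled CPM in each m6A (top row) and input library (bottom row), by treatment and time. Points are libraries coloured by library set, horizontal bars are group means and the vertical bars beside them span 1 SD on either side of the mean. The m6A points of Robo1 in KA mice lie between 61.2 and 85.3 at both times, below all PBS points.

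Epha6, another neuronal Eph receptor, had 70.8, 71.2, 117, 142 and 167 CPM in the KA mice and 178, 182 and 192 in the PBS mice. All KA libraries lay below the PBS libraries, with KA mice 8 and 98 lowest, and the log2 fold change was -0.69 ± 0.32 (edgeR adjusted p = 0.963). Sema5a, a transmembrane semaphorin, had 27.2, 36.8, 40.0, 55.1 and 61.3 CPM in the KA mice and 54.4, 67.1 and 68.7 in the PBS mice. Its groups overlapped, and the log2 fold change was -0.51 ± 0.29 (edgeR adjusted p = 0.983).

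Among the genes with higher values in KA mice, the GPI-anchored ephrin Efna5 had 9.30, 10.4, 11.0, 14.5 and 19.6 CPM against 5.78, 7.86 and 8.33 in the PBS mice. The groups did not overlap, and the log2 fold change was 0.81 ± 0.33 (edgeR adjusted p = 0.855). Ntn4, a netrin of basement membranes, had 7.04, 8.15, 9.66, 10.7 and 14.6 CPM against 5.63, 6.45 and 6.59. It too had no overlap, with a log2 fold change of 0.69 ± 0.32 (edgeR adjusted p = 0.977).

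The other 4 of the higher genes overlapped between groups. Sema3b, a secreted semaphorin, had 0.878 to 2.90 CPM in the KA mice and 0.732 to 1.28 in the PBS mice, with a log2 fold change of 0.95. Sema3e had 94.0 to 193 CPM against 80.5 to 111, with a log2 fold change of 0.44. Sema4c, a transmembrane semaphorin, had 6.92 to 17.2 CPM against 3.81 to 11.6, with a log2 fold change of 0.66. Robo4, a Robo receptor of endothelium, had 1.76 to 5.14 CPM against 0.732 to 2.70, with a log2 fold change of 0.77. In the last 2 the lowest PBS library was that of PBS mouse 1, without which Sema4c stood at 0.34 and Robo4 at 0.37, and without PBS mouse 73 Sema4c stood at 1.06. Sema3e stood at 0.22 without KA mouse 79.

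The count of 0 at 24 hours depended on the tool and on the libraries. Limma voom with sample quality weights called 7 guidance genes of 67, where it called 6.81% of all genes: Efnb3, Robo1, Epha4, Dcc, Plxna1 and Unc5a lower and Sema4c higher, with adjusted p between 0.00638 (Robo1) and 0.0412 (Plxna1). Within set 4, edgeR called 2.11% of all genes and 3 guidance genes, Efnb3, the semaphorin receptor Plxna1 (-0.88 ± 0.14) and the netrin receptor Unc5a (-1.14 ± 0.17), all lower. Over all libraries Plxna1 and Unc5a had log2 fold changes of -0.60 and -0.66, with PBS mouse 1 far below the other PBS mice: 59.9 against 133 and 137 CPM for Plxna1, and 23.0 against 58.3 and 61.1 for Unc5a. DESeq2 called 0 guidance genes and 0.947% of all genes. Markers of hippocampal neurons moved alongside, with 2 of 9 above 0, a median log2 fold change of -0.68 and sums of 457 to 1075 CPM in KA mice against 911 to 1094 in PBS mice. Summed markers of excitatory neurons stood at 1102 to 3667 CPM against 2351 to 5091, with 1 of 7 above 0, and those of oligodendrocytes at 1630 to 2567 against 1723 to 3688, with 3 of 8 above 0. Summed endothelial markers stood at 384 to 495 CPM in KA mice against 238 to 309 in PBS mice, without overlap, with 5 of 7 above 0. Their part in the lower receptor levels, and in higher values such as those of Robo4 and Ntn4, was not tested.

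Classical guidance genes that the tests did not bring forward had overlapping levels at 24 hours. Nrp1 had 68.2 to 226 CPM in the m6A libraries of KA mice and 100 to 167 in those of PBS mice, and Nrp2 had 71.8 to 151 against 67.9 to 141. The plexin Plxna4, a partner of neuropilins, had 95.7 to 294 against 147 to 261, and the netrin receptor Unc5c had 78.5 to 102 against 91.1 to 114. Among the ligands, Sema3a had 8.52 to 45.3 against 7.52 to 20.6, Sema3f 1.76 to 3.01 against 2.27 to 3.38 and Slit2 58.4 to 124 against 53.4 to 84.3. Ephb2, an Eph receptor of synapses, had 29.4, 29.7, 51.8, 55.3 and 241 CPM against 50.1, 56.3 and 59.1, the highest being KA mouse 8. In the input library of the same mouse Ephb2 was at 124 CPM, where the other 2 KA mice had 45.7 and 48.0 and the PBS mouse 50.5.

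At 2 weeks the m6A comparison asked whether the differences were still present in mice with chronic epilepsy. Of 67 guidance genes tested, 0 passed the adjusted p in edgeR (0% of 16157 genes did). At an unadjusted p of 0.05, 3 lay lower and 0 higher, against 2.16% and 2.85% of all genes. All KA libraries lay below all PBS libraries for 2 guidance genes and above for 0, against 0.167% and 0.470% of all genes.

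Robo1 had the smallest p among them. Its level in the m6A libraries of the 6 KA mice ran from 61.2 to 85.3 CPM with a median of 70.0. In those of the PBS mice it was 87.2, 104, 108, 124 and 153. No KA library reached the lowest PBS library, that of PBS mouse 2. The log2 fold change was -0.67 ± 0.18 (SE; edgeR adjusted p = 0.875), and within set 5, with 3 KA and 3 PBS mice, it was -0.70 ± 0.24 (edgeR adjusted p = 0.956). Blocked by library set it was -0.72 ± 0.24. The KA mice at 24 hours and at 2 weeks were different animals, as were the PBS mice.

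Efnb2, a transmembrane ephrin that also shapes vessels, was the other gene without overlap, with 31.2 to 46.9 CPM in KA mice (median 42.7) and 47.9, 49.8, 50.9, 51.5 and 55.6 in PBS mice. The distance between the groups was small, and the log2 fold change was -0.30 ± 0.16 (edgeR adjusted p = 0.875). Dcc had 23.3 to 39.0 CPM in KA mice (median 27.1) and 28.4, 31.6, 35.6, 45.7 and 82.8 in PBS mice. Its groups overlapped, and the log2 fold change of -0.59 ± 0.28 (edgeR adjusted p = 0.875) was -0.27 without PBS mouse 4, whose library held the highest value. Within set 5, which includes PBS mouse 4, it was -0.88 ± 0.33.

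The transmembrane semaphorin Sema4g had 4.82 to 13.3 CPM in KA mice (median 8.25) and 8.73, 10.7, 13.7, 14.3 and 24.1 in PBS mice. Its log2 fold change of -0.68 ± 0.30 (edgeR adjusted p = 0.875) was -0.43 without PBS mouse 4 and then no longer passed an unadjusted p of 0.05. Whether it passed also depended on other mice, with an unadjusted edgeR p of 0.0735 without KA mouse 6 and 0.0144 without KA mouse 42. Sema6c, another transmembrane semaphorin, had 1.99 to 5.02 CPM (median 2.34) against 2.73, 3.47, 3.99, 8.50 and 9.04, with a log2 fold change of -0.86 ± 0.39 (edgeR adjusted p = 0.875). Ephb1, an Eph receptor of commissural and hippocampal axons, had 16.4 to 29.5 CPM (median 22.6) against 18.02, 19.8, 30.9, 46.7 and 50.8, with a log2 fold change of -0.54 ± 0.29. All 3 overlapped. The 2 highest PBS values of Sema6c and of Ephb1 belonged to PBS mice 50 and 78, the 2 of set 4, and within set 5 the log2 fold change of Ephb1 was 0.00.

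Of the genes with higher values at 2 weeks, Ntn4 had 9.91 to 12.6 CPM in KA mice (median 12.3) and 6.45, 7.70, 8.48, 11.1 and 12.3 in PBS mice, with a log2 fold change of 0.37 ± 0.21 (edgeR adjusted p = 0.875). The other 5 had p of 0.245 or more in edgeR: Unc5d with a log2 fold change of 0.27, the immune-cell semaphorin Sema4a with 0.33, the secreted semaphorins Sema3d and Sema3a with 0.21 and 0.50, and Epha5 with 0.24. Single libraries moved these values: Sema4a stood at 0.13 without KA mouse 42, Sema3a at 0.20 without KA mouse 9, Epha5 at 0.074 without PBS mouse 4, and Unc5d and Sema3d at 0.14 and 0.12 without PBS mouse 78. Their groups overlapped, with Sema3a at 11.5 to 63.5 CPM in KA mice and at 7.55, 11.9, 24.1, 31.0 and 40.0 in PBS mice, the widest spread of the 5 in relative terms. Unc5d stood at -0.06 within set 5. Efnb3 and Epha4, lower in KA mice at 24 hours, had log2 fold changes of -0.50 and -0.11 at 2 weeks, and 0.02 and 0.17 within set 5. Leaving out 1 mouse at a time moved that of Efnb3 between -0.79 and -0.30.

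Over all 67 genes the median log2 fold change at 2 weeks was -0.12 against 0.00 over all genes, with 23 above 0. With the library set as a block the median was 0.11 and 40 lay above 0, and within set 5 it was 0.13 with 43 above 0, so that the direction of the group turned while that of Robo1 did not. These fits take the KA contrast from the same mice of set 5. Microglial markers stood higher, with 9 of 10 above 0, a median log2 fold change of 0.88 and sums of 215 to 640 CPM in KA mice against 163 to 240 in PBS mice. Their part in the results above was not tested.

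The change of the KA effect between 24 hours and 2 weeks was itself tested as a difference of differences over all 19 m6A libraries, the same ones as above. No guidance gene of 67 passed the adjusted p in edgeR, where 0.00573% of 17440 genes did, and 0 passed an unadjusted p of 0.05, where 2.45% of all genes did. The smallest p belonged to Epha6, with a change of 0.67 ± 0.37 on the log2 scale (edgeR adjusted p = 1).

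**Figure D3:**
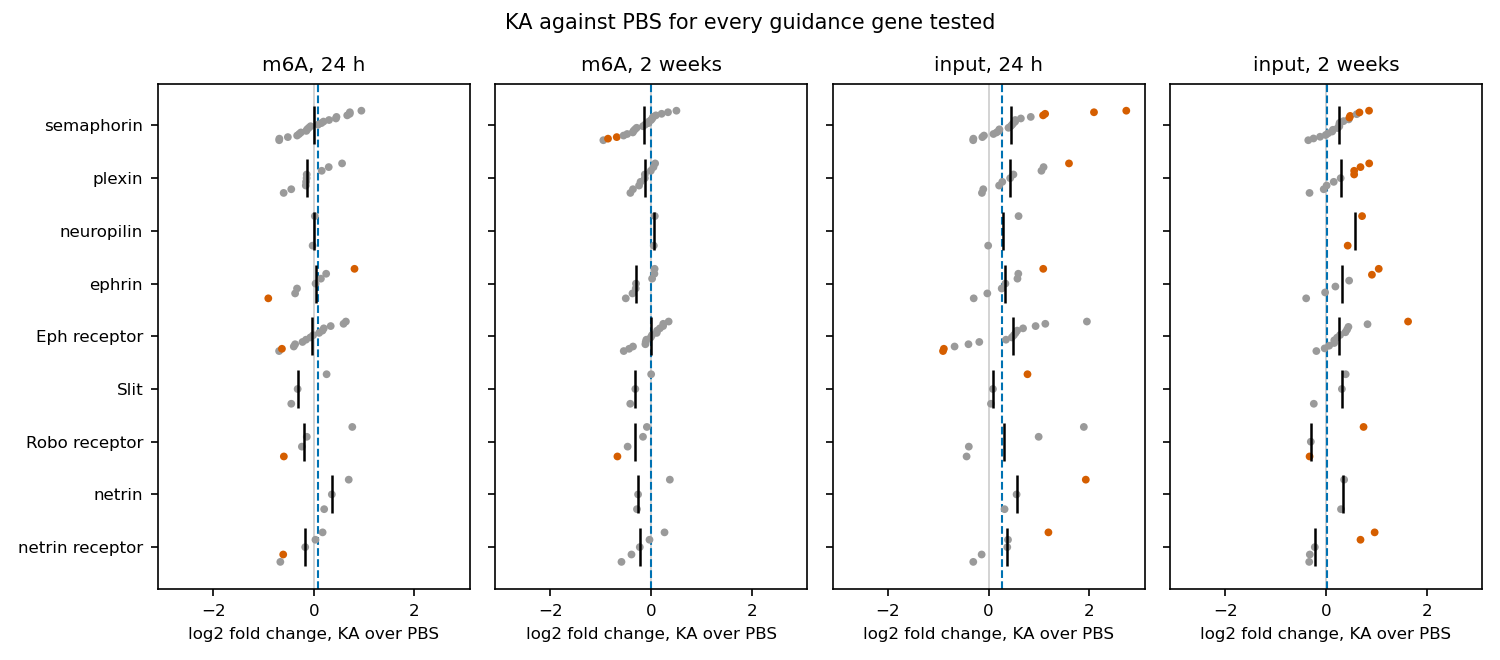
Log2 fold change of KA over PBS for every guidance gene tested, by family, in m6A and input libraries at 24 hours and 2 weeks. Each point is a gene, orange where the unadjusted edgeR p was under 0.05. Black ticks are family medians, the grey line marks 0 and the dashed blue line the median of all genes tested. Semaphorins and plexins lie mostly right of 0 in the input at 2 weeks, where 14 of 18 and 7 of 9 were above 0.

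In input RNA at 2 weeks, which measures expression irrespective of m6A, 60 guidance genes were tested and 0 passed the adjusted p in edgeR (0% of 13752 genes did). At an unadjusted p of 0.05, 16 lay higher in KA mice and 1 lower, against 8.41% and 5.69% of all genes. All 6 KA libraries lay above all 3 PBS libraries for 4 genes (Nrp2, Sema7a, Efnb1 and Plxna4) and below for 0, against 3.48% and 4.04% of all genes. The median log2 fold change was 0.28 against 0.02 over all genes, and it stayed between 0.19 and 0.32 in the other normalizations, tools and library sets tried. All PBS libraries here had no prefix, whereas some KA libraries were of the set with the prefix Input. For those KA libraries, treatment and library set cannot be told apart.

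Nrp2, the receptor through which Sema3f acts on hippocampal axons and spines, had 61.2 to 103 CPM in the KA mice (median 75.1) and 46.5, 48.5 and 52.5 in the PBS mice. The groups did not overlap, and the log2 fold change was 0.72 ± 0.18 (SE; edgeR adjusted p = 0.242). DESeq2 called it with an adjusted p of 0.0382 and limma voom with 0.0361, where DESeq2 called 0.844% of all genes. Its ligand Sema3f stood at 1.28 to 3.91 CPM in KA mice and at 1.83, 2.13 and 3.59 in PBS mice, with overlap and a log2 fold change of -0.25 ± 0.38.

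Sema7a, a GPI-anchored semaphorin that promotes axon outgrowth, had 24.9 to 40.5 CPM in the KA mice (median 34.3) and 17.9, 19.5 and 24.8 in the PBS mice. The lowest KA library and the highest PBS library nearly met, and the log2 fold change was 0.67 ± 0.18 (edgeR adjusted p = 0.244). Efnb1, a transmembrane ephrin, had 2.93 to 5.38 CPM (median 3.89) against 1.22, 1.83 and 2.73, without overlap and with a log2 fold change of 1.05 ± 0.33 (edgeR adjusted p = 0.266). Unc5b, a netrin receptor of vessels and neurons, had 7.17 to 12.5 CPM (median 8.43) against 2.90, 3.65 and 7.52. Its groups overlapped through PBS mouse 2, and the log2 fold change was 0.97 ± 0.31 (edgeR adjusted p = 0.266), or 1.51 without that mouse and 0.67 without PBS mouse 4. Limma voom called Sema7a and Unc5b beside Nrp2, with adjusted p of 0.0293 and 0.0418, making 3 of 60 where it called 2.60% of all genes.

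Plxna4 had 125 to 229 CPM in the KA mice and 101, 114 and 121 in the PBS mice, with a log2 fold change of 0.56 ± 0.19 (edgeR adjusted p = 0.277). Nrp1 had 102 to 166 CPM against 93.9, 111 and 115, with overlap and a log2 fold change of 0.43 ± 0.16 (edgeR adjusted p = 0.296). Of the 9 plexins, 7 lay above 0, Plxnc1 and Plxna3 lay below at -0.33 and -0.04, and 4 passed an unadjusted p of 0.05, all higher, and of the 18 semaphorins tested 14 lay above 0 and 4 passed, all higher. Robo2 was the 1 gene lower at that level, at -0.33 ± 0.13 (edgeR adjusted p = 0.304).

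The genes with lower levels in the m6A libraries overlapped between groups in input. Robo1 had 41.4 to 71.2 CPM in the input of KA mice at 2 weeks (median 50.1) and 55.1, 63.7 and 76.3 in that of PBS mice, with overlap and a log2 fold change of -0.30 ± 0.18 (edgeR adjusted p = 0.453). Dcc had 18.5 to 34.0 CPM against 28.1, 35.5 and 35.8, with a log2 fold change of -0.32 ± 0.17. Epha4 stood at 0.22 ± 0.19 and Efnb3 at 0.19 ± 0.22. Robo1 was -0.18 and Epha4 0.07 without PBS mouse 3, and Efnb3 0.076 without KA mouse 21. Of the other classical genes, Sema3a stood at -0.35, Slit2 at -0.24, Unc5c at -0.22 and Ephb2 at 0.16, with edgeR p between 0.125 (Unc5c) and 0.402 (Ephb2). Markers of some cell types moved with the group: 10 of 10 microglial markers, 8 of 9 astrocytic markers and 6 of 7 markers of excitatory neurons lay above 0, with median log2 fold changes of 0.89, 0.52 and 0.51. The summed microglial markers stood at 166 to 457 CPM in KA mice and 133 to 176 in PBS mice, and those of excitatory neurons at 1529 to 3488 against 1311 to 2134. Other lists went the other way. Summed endothelial markers stood at 490 to 992 CPM in KA mice against 684 to 1094 in PBS mice, with overlap. Summed markers of the thalamus stood at 76.0 to 118 against 121 to 192, without overlap. The part of these cell types in the higher values was not tested.

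**Figure D4:**
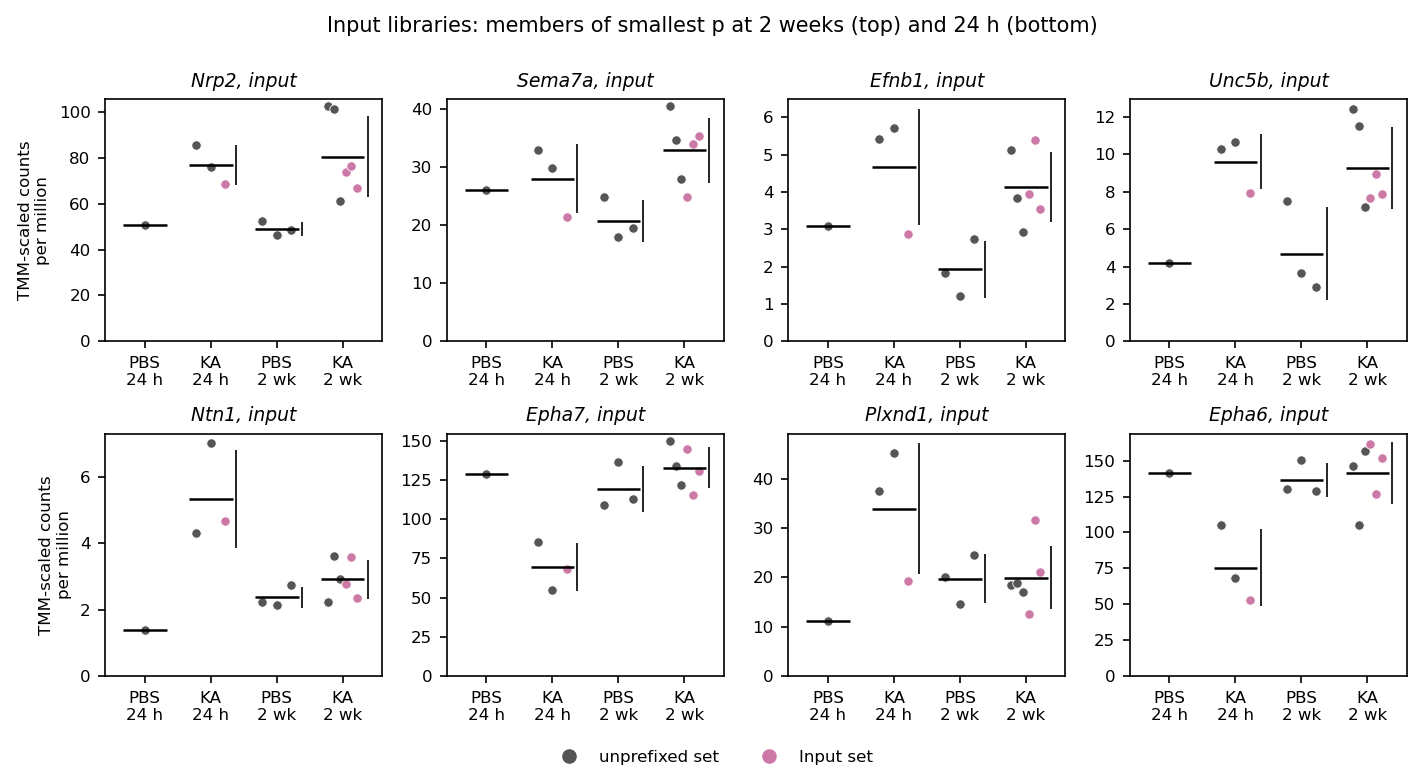
Input levels, in TMM-scaled CPM, of the 4 guidance genes of smallest p at 2 weeks (top row) and at 24 hours (bottom row), by treatment and time. Points are libraries coloured by library set, horizontal bars are group means and vertical bars span 1 SD on either side. Nrp2 in KA mice lies between 61.2 and 103 at 2 weeks, above the PBS points at 46.5 to 52.5; at 24 hours there is 1 PBS point.

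The input comparison at 24 hours had 1 PBS mouse, whose spread was assumed to be that of the other groups in a fit over all 13 input libraries. Of 67 guidance genes, 0 passed the adjusted p in edgeR (0% of 17644 genes did). At an unadjusted p of 0.05, 9 lay higher and 2 lower, against 4.99% and 4.24% of all genes. The median log2 fold change was 0.43 against 0.27 over all genes, and with scaling by library size alone the medians were 0.12 and -0.04.

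Ntn1, the secreted ligand of Dcc and the Unc5 receptors, had 4.30, 4.68 and 7.01 CPM in the KA mice and 1.37 in the PBS mouse. All 3 KA libraries were above it, and the log2 fold change was 1.93 ± 0.50 (SE; edgeR adjusted p = 0.315). The PBS mice at 2 weeks had 2.13, 2.24 and 2.73 CPM, between the 2 groups at 24 hours. Plxnd1, a plexin of vessels and neurons that binds Sema3e, had 19.2, 37.4 and 45.2 CPM against 11.1, with KA mouse 8 lowest of the 3. The PBS mice at 2 weeks had 14.6, 20.1 and 24.4 CPM, above the PBS mouse at 24 hours and around the level of KA mouse 8. Its log2 fold change was 1.60 ± 0.52 (edgeR adjusted p = 0.394), and without KA mouse 8 it was 1.88 ± 0.43 and passed (edgeR adjusted p = 0.0489, with 1.18% of all genes called). Without KA mouse 98 it was 1.34.

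Epha7, an Eph receptor of dentate and cortical neurons, had 55.1, 68.2 and 85.2 CPM in the KA mice and 129 in the PBS mouse. The PBS mice at 2 weeks had 109, 113 and 136 CPM, above all 3 KA mice at 24 hours. The log2 fold change was -0.89 ± 0.24 (edgeR adjusted p = 0.315), and DESeq2 called it with an adjusted p of 0.0297, with 1.12% of all genes called. Epha6 had 53.1, 68.0 and 105 CPM against 141, with a log2 fold change of -0.90 ± 0.31 (edgeR adjusted p = 0.405). Limma voom called 4 guidance genes of 67, the share it called of all genes (5.99%) being about the same: Ntn1, Plxnd1, the plexin Plxnb2 and Epha7, with adjusted p between 0.0167 (Plxnd1) and 0.0387 (Plxnb2).

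Epha4 had 130, 172 and 179 CPM in the input of KA mice at 24 hours and 256 in that of the PBS mouse, a log2 fold change of -0.67 ± 0.32 beside -0.63 in the m6A libraries. Robo1 had 49.3, 56.9 and 60.0 CPM against 75.1, a log2 fold change of -0.44 ± 0.28 beside -0.59. Dcc stood at -0.30 ± 0.30 and Efnb3 at -0.29 ± 0.42, beside -0.61 and -0.90. The lower values of these 4 genes in the m6A libraries at 24 hours stood beside lower fitted values in input, none of which passed. For Efnb3 the input value rested on KA mouse 8, without which it was -0.0072, and without KA mouse 67 it was -0.52. That of Dcc was -0.16 without KA mouse 98. Endothelial markers had higher fitted values in the input, with 7 of 7 above 0 and a median log2 fold change of 1.73. Their sums of 476 to 1447 CPM in KA mice lay on both sides of the 789 of the PBS mouse. PBS mice at 2 weeks had sums of 684 to 1094 CPM. The part of these markers in values such as that of Plxnd1 was not tested.

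Whether the pulldown moved apart from input with KA was tested at 2 weeks as a difference of differences, on the same libraries as the 2-week comparisons above. No guidance gene of 66 passed the adjusted p in edgeR (0% of 16141 genes did). At an unadjusted p of 0.05, 4 lay lower and 1 higher, against 2.35% and 1.70% of all genes. The ephrins Efnb1 and Efna2 had the smallest p, with changes of -1.45 ± 0.62 and -1.25 ± 0.55 on the log2 scale (edgeR adjusted p = 0.807 for both). With the mouse as a replicate block they stood at -0.77 ± 0.48 and -0.40 ± 0.38. Of the 66, 11 lay above 0, with a median of -0.47 against -0.04 over all genes, and in the blocked fit 21 of 66 lay above 0 with a median of -0.20. Robo1 stood at -0.41 ± 0.20 in it (edgeR adjusted p = 0.875). Neither of these fits separates KA from library set. In each assay a set held KA mice only, and a further m6A set held only PBS mice at 2 weeks. In the m6A comparison at 2 weeks the direction of the group depended on how the sets were treated. The medians given here are therefore not a measure of KA alone.

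Of 93 other guidance genes, written as a list of further receptors, ligands and cytoplasmic effectors, none passed the adjusted p in the 4 KA comparisons with edgeR. In m6A, 1 of 92 lay higher and 1 lower at an unadjusted p of 0.05 at 24 hours. At 2 weeks it was 1 and 2. In input, 6 of 92 lay higher and 5 lower at 24 hours, and 13 of 86 higher and 7 lower at 2 weeks, where their median log2 fold change was 0.12 against 0.02 over all genes. Over all genes, 4.99% lay higher and 4.24% lower in input at 24 hours, and 8.41% and 5.69% did at 2 weeks. In m6A the shares stood at 4.02% and 1.29% for 24 hours, with 2.85% and 2.16% for 2 weeks.

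Efna4 was below the count filter in all 7 comparisons. The input at 2 weeks also lost Efna1, Epha1, Epha8, Ntn5, Robo4, Sema3b and Sema3g to the filter. Epha1, Robo4 and Sema3g were below it in the pulldown comparison of PBS mice, and Epha1 in the change of that ratio with KA. No statement on these genes is made there.

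The promoters of the 3 guidance genes with the smallest p in m6A at 24 hours among those printable from the RefSeq promoter table are shown to place these genes in the genome (GRCm38.p6; 250 bases before to 50 after the start of the gene, read along the gene's strand). Capitals mark the GC box GGGCGG on either strand.
Robo1, chr16:72662899-72663198, plus strand: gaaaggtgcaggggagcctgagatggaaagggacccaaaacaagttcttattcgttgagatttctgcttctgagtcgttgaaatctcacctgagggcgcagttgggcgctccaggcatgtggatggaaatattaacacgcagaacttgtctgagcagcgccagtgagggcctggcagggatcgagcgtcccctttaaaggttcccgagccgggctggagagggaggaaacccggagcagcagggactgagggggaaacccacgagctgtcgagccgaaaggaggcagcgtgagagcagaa
Epha4, chr1:77515039-77515338, minus strand: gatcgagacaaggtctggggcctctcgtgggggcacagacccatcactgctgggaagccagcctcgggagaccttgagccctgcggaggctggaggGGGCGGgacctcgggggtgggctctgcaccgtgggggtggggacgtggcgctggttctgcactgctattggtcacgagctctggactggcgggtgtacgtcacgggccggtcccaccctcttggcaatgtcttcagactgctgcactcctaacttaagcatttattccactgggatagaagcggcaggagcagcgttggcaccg
Efna5, chr17:62881268-62881567, minus strand: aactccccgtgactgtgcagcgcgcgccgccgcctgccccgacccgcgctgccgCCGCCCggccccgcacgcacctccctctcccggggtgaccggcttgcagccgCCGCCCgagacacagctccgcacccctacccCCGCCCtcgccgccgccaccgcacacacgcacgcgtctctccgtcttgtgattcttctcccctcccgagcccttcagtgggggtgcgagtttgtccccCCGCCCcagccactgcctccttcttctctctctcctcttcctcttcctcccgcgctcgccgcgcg
The Robo1 window held 0 GC boxes, that of Epha4 1 and that of Efna5 4. For Robo1 the start assumed for the window differs from that of the canonical transcript used above. The letters around GGACT at position 252 of that transcript recur in the window before its assumed start. The Robo1 window may therefore hold transcribed bases, and its count may not describe the bases before that transcript. Of the 58 guidance genes in the table, 72.4% had a GC box in the window, against 35.9% of all 27025 promoters of this length. The AP-1 letters TGANTCA, searched on both strands, were in 3.45% of the guidance promoters and 7.93% of all, and the cAMP response element TGACGTCA in 1.72% and 1.88%. None of the 3 windows shown held either. These matches describe letters only.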

How the data were processed

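Hippocampal input and m6A-immunoprecipitated RNA of KA and PBS mice had been sequenced with a stranded total RNA kit. The authors deposited raw read counts per gene, with each sequencing lane of a library in its own column, on build mm10 per the submitters' processing notes. Aligner and counter were not given in the sources used here. Counts of 4 lanes were summed into 35 libraries. A further 8 columns matched no sample and were not used. The labels name each mouse, its treatment and time, and the assay of 27 libraries was inferred from column name prefixes. Input libraries under 100000 counts were left out.

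Counts were tested with edgeR 4.0.16 (TMM, filterByExpr, robust quasi-likelihood) over all genes passing the filter, in R 4.3.3, with Benjamini-Hochberg adjusted p under 0.05 as the call, and for the pulldown in PBS mice also an absolute log2 fold change above 1. SE is the log2 fold change over the root of F. Fits were tested on simulated data. DESeq2 1.42.0, limma 3.58.1 (voom), library size scaling, other filters, a library set block, a mouse block and leaving out each mouse were the alternatives. Fits within single library sets were added after seeing the data. Named genes were those past the adjusted p, the 6 of smallest p in each direction in each m6A comparison, the 4 of smallest p in each input comparison, and 12 classical hippocampal guidance genes, and genes called only by an alternative or leading another comparison were named after their values were seen. Members and lists were chosen with earlier results of these data known. Input and m6A libraries with the same mouse number come from the same animal per the labels. In the 12 such mice whose groups held further libraries in both assays, correlations of the deviations from group means ran from -0.21 to 0.90.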

Additional observations from a re-analysis of the deposited data

Results flagged for a closer look

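Of 140 groups of 4 to 10 values looked at, 6 held 1 library far from the others by Dixon's criterion, where chance marks about 1 in 20. In m6A of KA mice at 24 hours, Ephb2 stood at 241 CPM in mouse 8 against 29.4 to 55.3 in the others, Sema4a at 17.2 in mouse 98 against 5.99 to 9.22, and Unc5d at 58.1 in mouse 98 against 33.0 to 35.1. In m6A of KA mice at 2 weeks, Ntn4 was lowest in mouse 21, at 9.91 CPM against 11.6 to 12.6. In m6A of PBS mice at 2 weeks, Plxnd1 stood at 30.7 CPM in mouse 4 against 13.1 to 17.2, and Sema3b at 4.81 in mouse 50 against 1.19 to 2.22.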

How the results depend on the processing

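Of 1032 alternatives for 54 single-gene results, 1008 kept direction and call, 15 gained a call and 9 reversed, and 138 of 145 alternatives for counts were unchanged. The guidance genes called, 0 in edgeR, became 7 (m6A at 24 hours), 3 (input at 2 weeks) and 4 (input at 24 hours) with limma voom, 1 in each input comparison with DESeq2, and 3 in m6A at 24 hours within set 4. Leaving out 1 mouse gave 0 to 1 in input at 24 hours (1 without KA mouse 8) and 0 elsewhere. With the mouse as a replicate block, 0 were called in both pulldown comparisons. In m6A at 2 weeks, Unc5d reversed to -0.076 with the set as a block and -0.059 within set 5, Epha4 to 0.15 and 0.17 (-0.23 to 0.0082 without 1 mouse each, above 0 without PBS mouse 50), and Ephb1 and Efnb3 to 0.0020 and 0.020 within set 5. Sema3f in input at 2 weeks ranged from -0.45 to 0.14 (above 0 without PBS mouse 4), and Dcc in input at 24 hours was 0.060 with all labelled libraries. The causes were not tested. Genes called of all tested were, in edgeR, DESeq2 and voom, 1, 156 and 1121 in m6A at 24 hours (3 with library size only, 22 without filter, 31 with all groups, 45 without KA mouse 8, 356 within set 4), 0, 15 and 2 in m6A at 2 weeks, 0, 116 and 357 in input at 2 weeks, 0, 197 and 1057 in input at 24 hours (75 with all labelled libraries, 180 without KA mouse 8), 1, 5 and 62 for the change with time, and 156, 442 and 475 for the pulldown in PBS mice (284 with library size only, 57 with the mouse block). Its change with KA gave 0, against 4 with DESeq2 and 1 with the mouse block. Input at 24 hours could not be fitted without its only PBS mouse, nor the pulldown in PBS mice with a library set block. The single PBS input at 24 hours and unequal depth limit precision.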
